A study of Schizosaccharomyces pombe with 10 samples.

Results

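The comparison set the effect of losing Clr6 complex II, a histone deacetylase complex of fission yeast (Schizosaccharomyces pombe), against the effect of losing Set2, the methyltransferase of histone H3 lysine 36. For each gene the Clr6 complex II effect was the mean log2 change in cph1-delta and cph2-delta from their parent wt, the Set2 effect was the log2 change in set2-delta from its own parent wt2, and the interaction was the first minus the second. A negative interaction therefore marks a gene that stood lower after loss of the deacetylase subunits, relative to its parent, than after loss of Set2. All 10 of the study's 10 libraries entered it. The count filter left 5067 of 7268 annotated genes for testing, and 67 of these (1.32%) had an interaction past a Benjamini-Hochberg adjusted p of 0.05 in the quasi-likelihood test of edgeR (below, adjusted p).

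The wt strain YYX43sp is dy1779 and h-, with the alleles his3 d1, ura4-d18, leu1-32 and also ade6-m216. The strains YYX46sp and YYX47sp share these alleles and carry cph1-delta::KANMX or cph2-delta::KANMX, a drug resistance cassette in place of the gene. The labels of wt2 (YBL685sp) give h- and no further allele, and set2-delta (YBL686sp) is h- with set2:null:KANMX. Cells grew in the rich medium 2xYES, and poly(A)-selected RNA was sequenced in 2 libraries per strain. The labels name neither cultures nor clones, so p-values measure the spread between these libraries, which may be technical. The 2 deletion series have different parents, and the labels do not say in what those parents differ.

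Set2 travels with elongating RNA polymerase II and methylates histone H3 lysine 36 in the bodies of transcribed genes. In budding yeast this mark stimulates the deacetylase Rpd3S, whose fission yeast counterpart is Clr6 complex II, and Cph1 and Cph2 are its PHD finger subunits. Set2 is also needed in fission yeast for the condensed chromatin of the subtelomeres, the stretches next to the chromosome ends, which hold many genes that are little transcribed in rich medium.

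The deleted genes matched the labels in every library. Levels are given as CPM, which are counts relative to the TMM-scaled size of the library, with n = 2 libraries per strain. Transcripts of cph1 stood at 4.32 and 2.64 CPM in cph1-delta against 79.3 and 81.2 CPM in wt, those of cph2 at 6.95 and 2.37 CPM in cph2-delta against 134 and 113 CPM in wt, and those of set2 at 8.60 and 8.25 CPM in set2-delta against 102 and 110 CPM in wt2. These 3 genes are among the 67, as the deletions themselves make them, and were left out of what follows. The marker ura4 had 0 counts in the 6 libraries of wt, cph1-delta and cph2-delta and between 1357 and 2516 counts in the other 4. The marker his3 had between 0 and 2 counts in those 6 and between 0 and 5 in the other 4, so it did not separate the parents. Assigned counts per library ran from 9711537 to 13051467.

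The remaining differences ran nearly all in 1 direction. In 60 genes the interaction was lower (1.18% of the genes tested) and in 7 it was higher (0.138%), or 58 and 6 genes without the deleted ones. In the 58 genes the median interaction was -5.33 on the log2 scale, beside -0.02 over all genes tested. With a floor of 3 counts per group, which bounds the ratio of genes near 0, the median was -5.18. The Set2 effect was past its own test, as a rise, in 55 of the 58 (over all genes tested 4.89% passed, 4.32% as a rise). The Clr6 complex II effect was past its test as a decrease in 13 of them, as a rise in 1 and not past it in 44, while 9.12% of all genes tested passed, 1.97% as a decrease and 7.14% as a rise. The 2 set2-delta libraries stood above all 8 others in 52 of the 58 genes. The interaction contains the Set2 effect, so the 58 were in part chosen for it and this count is a description. It is given without a share over all genes tested. Taken alone, cph1-delta gave an interaction past the test in 37 of them (0.75% of all genes tested were lower in it) and cph2-delta in 56 (1.14%). Since the 58 were chosen on the mean of both, and both share wt and the Set2 effect, these counts are a description. The median change from wt itself was -0.60 in cph1-delta and -1.41 in cph2-delta. The number of genes past the test was 33 without replicate 1 of wt and 29 without replicate 2 of set2-delta, and 27 of the 67 passed in each of the 10 fits that left out 1 library.

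**Figure D1:**
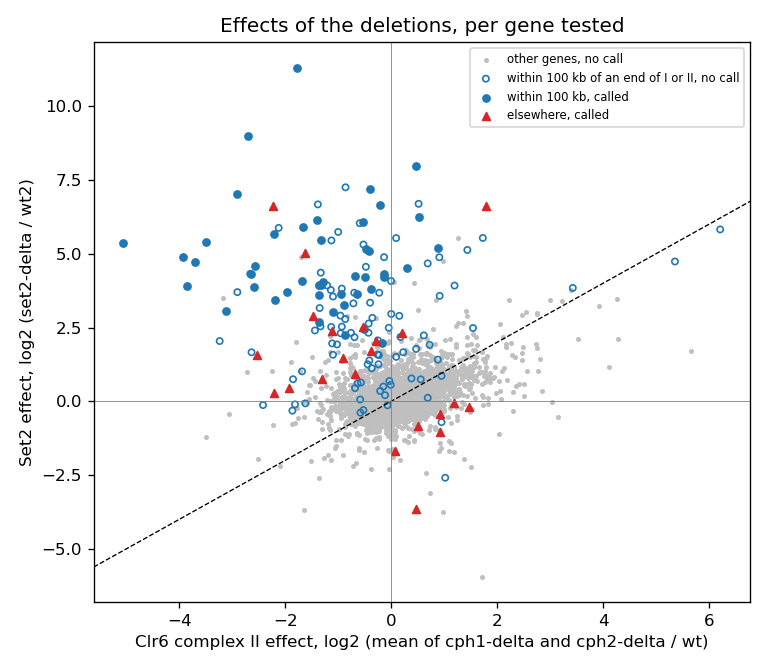
Each point is a gene tested (n = 5067), with the Clr6 complex II effect (log2, mean of cph1-delta and cph2-delta over wt) on the horizontal axis and the Set2 effect (log2, set2-delta over wt2) on the vertical axis. Filled blue points are the 45 genes past the interaction test no more than 100 kb from the ends of chromosomes I and II, open blue points are genes of those ends not past it, red triangles are genes past it elsewhere, and the dashed line marks equal effects; the filled blue points lie above the line, most of them near or left of 0 on the horizontal axis.

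Most of the lower genes lay near chromosome ends. Of the 58, 45 lay less than 100 kb from the ends of chromosomes I and II, 8 between 100 and 150 kb, 3 on the unplaced sequence AB325691, and 2 elsewhere. The 4 ends hold 184 annotated genes, of which 138 could be tested. Of those, 32.6% were lower in the interaction, beside 1.18% of all genes tested. The filter favours genes that are high in 1 strain, since 23 of the 138 passed it only through the set2-delta libraries. Among the other 115, 42 were lower (36.5%, beside 1.1% of all genes that passed without set2-delta) and the median interaction was -3.65. Of these 115, 54 rose in set2-delta (47%, beside 4.32% of all genes tested) and 1 fell (0.572% of all genes tested fell). In the mean of the cph1 and cph2 deletions 0 rose and 13 fell, beside 7.14% and 1.97% of all genes tested. With the 23 genes that passed only through set2-delta, 66 rose there. The number of genes lower near these ends was 45 in the full fit, 18 without replicate 1 of wt, 28 without replicate 1 of set2-delta and 19 without its replicate 2. In all of these settings the median interaction of the 138 genes stayed negative, from -3.04 without replicate 1 of wt to -4.70 without replicate 1 of wt2.

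Summed over all 184 annotated genes of these ends, the level was 5391 and 6179 CPM in wt, 2967 and 5749 CPM in cph1-delta, 2883 and 3585 CPM in cph2-delta, 4133 and 3376 CPM in wt2 and 9359 and 7979 CPM in set2-delta. Both set2-delta libraries were the highest, and both wt2 libraries were below both wt libraries. The second cph1-delta library overlapped wt, and the other 3 deletion libraries of that series lay below it. As a share of assigned counts, with no TMM scaling, that library was at 0.717%, above both wt libraries (0.539% and 0.522%); its TMM factor was 1.248. Without replicate 1 of wt, the median Clr6 complex II effect of the 138 genes tested was -0.06 in place of -0.59, and the median difference of wt2 from wt was -0.37 in place of -0.75. Less transcript per cell and fewer cells with an active gene cannot be told apart in such RNA from whole cultures.

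The difference faded with distance from the end. The median interaction, with the floor of 3 counts, was -4.85 in the 20 genes of the first 20 kb, -4.35 in the 29 genes from 20 to 40 kb, -2.40 in the 24 genes from 40 to 60 kb and -3.75 in the 34 genes from 60 to 80 kb. It was -2.35 in the 31 genes from 80 to 100 kb and -0.70 in the 79 genes from 100 to 150 kb. From 150 to 200 kb it was -0.15, and beyond 500 kb it was 0.01 over 3322 genes. All 4 ends of chromosomes I and II had negative medians, from -3.09 at the right end of II to -4.30 at the left end of II. At the ends of chromosome III the medians were -0.24 over 41 genes at the left and -0.16 over 40 genes at the right, where 0 and 1 genes were lower; the difference between chromosomes was not tested.

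**Figure D2:**
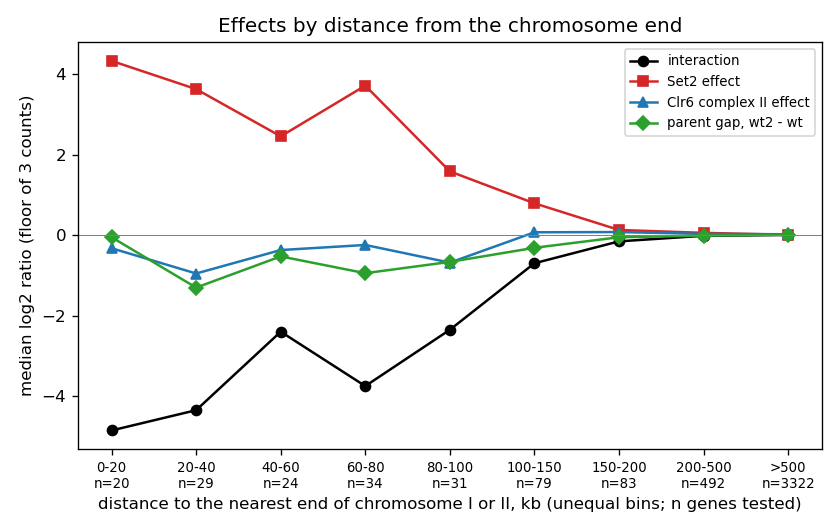
Median log2 ratio (vertical axis, floor of 3 counts per group) of the genes tested, by distance to the nearest end of chromosome I or II in kb (horizontal axis, unequal bins, n genes below each). The Set2 effect (red squares) is 4.33 in the first bin and 0.79 from 100 to 150 kb, the interaction (black circles) mirrors it below 0, and the Clr6 complex II effect (blue triangles) and the gap between the parents (green diamonds) stay between -1.30 and 0.08.

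In 11 genes both effects passed their tests with opposite signs, lower without the deacetylase subunits and higher without Set2. In SPAC186.03, an L-asparaginase gene (chromosome I, 5535061 to 5536432), the level was 4.16 and 4.85 CPM in wt, 1.163 and 2.48 CPM in cph1-delta, 0.794 and 0.254 CPM in cph2-delta, 1.01 and 1.46 CPM in wt2 and 61.6 and 64.3 CPM in set2-delta. The set2-delta libraries stood far above all others, and all 4 cph libraries lay below both wt libraries. Its Clr6 complex II effect was -2.21 ± 0.39 (SE) and its Set2 effect 5.67 ± 0.47, which gave an interaction of -7.88 ± 0.60 (adjusted p = 6.6e-05). L-asparaginase splits asparagine into aspartate and ammonium; 98.7% of the gene has a near-identical copy elsewhere, so its counts are uncertain.

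The hydroxyacid dehydrogenase gene SPAC186.02c (chromosome I, 5529851 to 5531144), with no such copy, behaved alike. It was at 2.574 and 3.16 CPM in wt and 0.842 and 0.836 CPM in wt2, at 0.166 and 0.160 CPM in cph1-delta and 0.199 and 0.339 CPM in cph2-delta, and at 25.5 and 19.9 CPM in set2-delta. The 3 sets of libraries (cph deletions, parents, set2-delta) did not overlap, though each cph library held only 2 to 4 counts and wt2 held 10 and 8. The interaction was -8.43 ± 0.66 (adjusted p = 6.6e-05), from a Clr6 complex II effect of -3.69 ± 0.44 and a Set2 effect of 4.74 ± 0.48.

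Among the other genes with opposite effects, gdt1 (chromosome I, 5540032 to 5541502), annotated as GDT1-like, a family of membrane proteins that move cations, was the most abundant of those near the ends. Its level was 128 and 195 CPM in wt, 38.8 and 33.4 CPM in cph1-delta, 44.2 and 25.8 CPM in cph2-delta, 55.2 and 3.76 CPM in wt2 and 284 and 361 CPM in set2-delta. The 2 wt2 libraries differed widely, and the second lay below all others. The interaction was -5.62 ± 0.98 (adjusted p = 0.015), and it no longer passed without replicate 2 of set2-delta or replicate 2 of wt. The membrane protein gene ftm4 (chromosome I, 5565881 to 5567337; the whole gene has near-identical copies) showed the same split of wt2, with 6.73 and 0.314 CPM there, 24.6 and 18.1 CPM in wt, 1.08 and 4.396 CPM in cph1-delta, 0.993 and 0.593 CPM in cph2-delta and 49.9 and 59.4 CPM in set2-delta. Its interaction was -7.77 ± 1.11 (adjusted p = 0.0042) and passed in every fit that left out 1 library.

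The cysteine transporter gene SPBPB10D8.01 (chromosome II, 80899 to 83357) was at 61.7 and 37.4 CPM in wt, 10.8 and 7.83 CPM in cph1-delta, 11.02 and 4.07 CPM in cph2-delta, 6.73 and 4.29 CPM in wt2 and 109 and 158 CPM in set2-delta. The interaction was -7.16 ± 0.57 (adjusted p = 6.8e-05). Here wt2 stood as low as the cph deletions, and its difference from wt passed its own test. The gene shares exon positions with SPBPB10D8.02c on the other strand, and the counting was not by strand. The other genes with opposite effects were SPAC750.06c (interaction -8.83), SPBC460.05 (-8.84), SPAPJ695.02 (-6.18), the adducin gene mug14 (-3.50), the phosphate transporter gene pho841 (-2.38) and the non-coding RNA prl37. With the floor of 3 counts the interaction of prl37 was -8.81, from 0 counts in both cph2-delta libraries and 2 counts in wt2. The whole of SPAC750.06c has near-identical copies. It had 14 and 0 counts in wt2 and between 1 and 4 counts in each cph library. In SPBC460.05 the cph libraries (7.56, 4.80, 5.16 and 2.29 CPM) overlapped wt (38.2 and 6.65 CPM), and sequence copies could not be checked.

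Most of the lower genes rose in set2-delta without a detected change in the cph deletions. The urea transporter gene SPAC869.03c (chromosome I, 5512757 to 5514865) was at 1.58 and 1.79 CPM in wt, 1.83 and 3.12 CPM in cph1-delta, 1.59 and 0.169 CPM in cph2-delta, 0.842 and 0.209 CPM in wt2 and 58.1 and 54.6 CPM in set2-delta. Only set2-delta stood apart. The Clr6 complex II effect was -0.22 ± 0.59 and the interaction -6.87 ± 0.92 (adjusted p = 0.0028). A second urea transporter gene, SPBPB8B6.02c (chromosome II), had between 0 and 2.08 CPM in the 8 libraries outside set2-delta and 32.6 and 24.8 CPM in set2-delta (interaction -7.60 ± 1.33, adjusted p = 0.015; not passed without replicate 1 of wt or without either replicate of set2-delta). The amidase gene SPAC869.01, between 0.166 and 2.38 CPM outside set2-delta, stood at 29.4 and 38.3 CPM there (-7.55 ± 1.07, adjusted p = 0.0041; not passed without replicate 1 of wt).

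The amino-acid permease gene nrg1 (chromosome II, 4457661 to 4459842) was at 11.3 and 11.8 CPM in wt, 12.1 and 11.7 CPM in cph1-delta, 8.74 and 2.03 CPM in cph2-delta, 2.02 and 1.05 CPM in wt2 and 76.6 and 134 CPM in set2-delta. In cph1-delta the level was that of wt, while wt2 lay below wt. The interaction was -6.60 ± 0.72 (adjusted p = 0.00074), and it passed in each fit that left out 1 library.

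From a list of 17 genes of hexose transport and glucose repression, 14 could be tested and 2 were lower in the interaction (14.3%, beside 1.18% of all genes), with a list median of -0.20 beside -0.02 over all genes. Both lie near an end, and 0 of the 12 list genes outside 100 kb of the ends were lower. The hexose transporter gene ght7 (chromosome II, 38514 to 40277) lay between 0.169 and 5.94 CPM in the 8 libraries outside set2-delta and at 56.2 and 44.2 CPM in set2-delta, with an interaction of -5.33 ± 1.001 (adjusted p = 0.021), which did not pass in 6 of the 10 fits that left out 1 library. The gene of the gluconate and proton symporter, ght3 (chromosome I, 82746 to 84786), lay between 3.45 and 15.1 CPM outside set2-delta and at 63.0 and 96.9 CPM in it, with an interaction of -4.93 ± 0.46 (adjusted p = 0.00028) that passed in all 10. Named after their values were seen, the pyruvate decarboxylase gene pdc102 gave -5.33 ± 0.97, the enolase gene eno102 -4.60 ± 0.93 and the dihydroxyacetone kinase gene dak2 -2.16 ± 0.38 (adjusted p = 0.019, 0.034 and 0.015). These 3 did not pass without replicate 1 of wt or without replicate 2 of set2-delta, eno102 also in 5 other such fits, pdc102 in 2 and dak2 in 1.

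From a flocculation list of 15 genes, 14 were tested and 2 were lower (14.3%, beside 1.18% of all genes), with a list median of -0.28, and outside 100 kb of the ends 1 of 11 was lower. Both encode DIPSY family glycoproteins of the cell wall. Transcripts of pfl7 (chromosome II, 117892 to 121286) were at 25.0 and 24.3 CPM in wt, 6.398 and 0.879 CPM in cph1-delta, 8.24 and 26.6 CPM in cph2-delta, 1.51 and 1.88 CPM in wt2 and 48.4 and 62.0 CPM in set2-delta. Of the 2 cph deletions, only cph1-delta lay wholly below wt, and cph2-delta overlapped it. Both wt2 libraries lay far below wt. That difference of wt2 from wt (-3.86 ± 0.75, adjusted p = 0.085) was 58.0% of the mean interaction of -6.65. The interaction was -7.79 ± 1.03 for cph1-delta and -5.52 ± 0.98 for cph2-delta. For pfl9 the interaction was -4.13 ± 0.65 (adjusted p = 0.0078). Of the 58 genes outside this list, also named after their values were seen, the transcription factor gene grt1 (chromosome II, 47369 to 51220) lay between 0.523 and 3.66 CPM outside set2-delta and at 33.4 and 39.0 CPM in it (-5.51, adjusted p = 0.0037), but it shares exon positions with SPNCRNA.1301, a non-coding RNA on the other strand that was lower as well (-4.19 ± 0.80), and the counts of the pair cannot be told apart without strand. The DNA-binding transcription factor gene SPBC1348.12 (chromosome II, 35112 to 36589) had no such overlap, with 3.20 to 12.3 CPM outside set2-delta and 58.9 and 70.4 CPM in it (-4.35 ± 0.42, adjusted p = 0.00028).

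Besides 47 coding genes, the 58 held 5 non-coding RNAs, and 3 of the other 6 are pseudogenes. The membrane transporter pseudogene SPBC1348.11 (chromosome II, 33231 to 34780) had at most 4.24 CPM outside set2-delta, with 0 in the second cph2-delta library, against 92.9 and 74.9 CPM in set2-delta (interaction -7.49 ± 1.40, adjusted p = 0.021, not passed in 7 of the 10 fits that left out 1 library). The transporter pseudogene SPBPB10D8.03 had 0 counts in both wt2 libraries and 267 and 400 counts in set2-delta. With wt2 set to the floor of 3 counts the ratio was 203.6, and a 95% interval from counting alone began at 166.7. Sequence copies bear on 14 of the 55 genes that could be checked, where at least 50% of the gene has a copy of 95% identity elsewhere; 41 of the 55 have none.

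**Figure D3:**
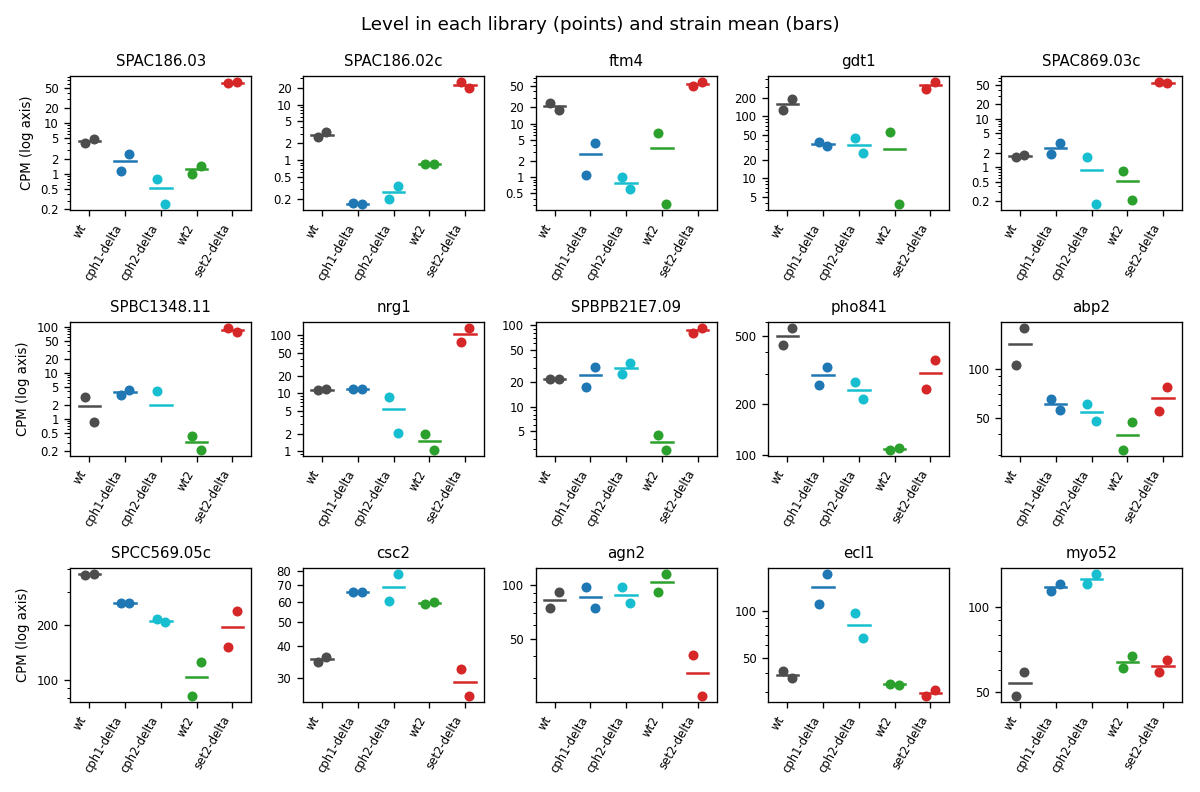
Level of 15 genes past the interaction test in each library (points, CPM on a log axis that differs between panels) with the strain mean as a bar (n = 2 libraries per strain); a library at 0 CPM, the second cph2-delta library of SPBC1348.11, cannot be drawn. In the first 8 panels set2-delta (red) is above every other strain; in pho841, abp2 and SPCC569.05c it lies below wt while wt2 (green) is lowest; in csc2 and agn2 set2-delta is lowest.

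The interaction of 2 parents and 3 deletions is the sum of 2 gaps. The deletion gap is the mean of cph1-delta and cph2-delta against set2-delta directly, and the parent gap is wt2 against wt. A gene is said here to be carried by the parent gap when that gap has the sign of the interaction and exceeds the deletion gap. In 57 of the 58 lower genes wt2 was below wt, and in 48 the libraries of the 2 parents did not overlap. The interaction contains the parent gap, so these genes were in part chosen for it. Both counts are a description and are given without a share over all genes tested. The median parent gap was -0.75 over all 138 tested genes of the ends and 0.008 over all genes tested. Over all genes tested, 0.197% passed the test of the parent gap, 3 higher (0.0592%) and 7 lower (0.138%) in wt2. The parent gap had a median of -1.77 in the 58 genes against -3.86 for the deletion gap, or a median of 35.1% of the interaction (35.9% with the floor of 3 counts). The deletion gap passed its own test in 54 of the 58 (2.35% of all genes tested were lower in it) and in all 6 higher genes (0.928%). The interaction contains the deletion gap too, so these counts are likewise a description.

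The parent gap carried 18 of the 58 lower genes and 0 of the 6 higher ones. Of the 18, 15 had more than 3 counts in each of wt, wt2, set2-delta and the pooled cph deletions. The count was 7 without replicate 1 of wt and 9 without replicate 2 of set2-delta. The parent gap passed its own test in 5 of the 58. In SPBPB21E7.09, another L-asparaginase gene (chromosome II, 75073 to 77625; 92.9% of it has a near-identical copy), the level was 21.98 and 21.5 CPM in wt, 17.6 and 30.8 CPM in cph1-delta, 24.8 and 34.1 CPM in cph2-delta, 4.54 and 2.93 CPM in wt2 and 79.98 and 91.4 CPM in set2-delta. The cph libraries overlapped wt, wt2 was far below and set2-delta far above. The parent gap was -2.52 ± 0.33 (adjusted p = 0.008), out of an interaction of -4.21 ± 0.41, and the deletion gap -1.68 ± 0.24 also passed (adjusted p = 0.0021).

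In 3 of these genes the parent gap was close to the whole interaction or above it. Transcripts of pho841, an inorganic phosphate transporter gene (chromosome II, 132353 to 136275), were at 440 and 556 CPM in wt, 259 and 330 CPM in cph1-delta, 269 and 213 CPM in cph2-delta, 107 and 110 CPM in wt2 and 246 and 359.4 CPM in set2-delta. The 3 deletion strains overlapped, between a high wt and a low wt2. The interaction was -2.38 ± 0.31 (adjusted p = 0.0028), the parent gap -2.20 ± 0.25 (adjusted p = 0.0032), and the deletion gap was -0.18 with a 95% interval from -0.63 to 0.26. The Clr6 complex II effect (-0.90 ± 0.20) and the Set2 effect (1.48 ± 0.24) each passed, in opposite directions.

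The gene of the ARS-binding protein Abp2, which binds replication origin DNA, lies outside the chromosome ends (chromosome II, 4130876 to 4133635). It was at 106 and 178 CPM in wt, 65.3 and 56.1 CPM in cph1-delta, 61.1 and 48.1 CPM in cph2-delta, 31.9 and 47.3 CPM in wt2 and 55.5 and 77.2 CPM in set2-delta. Its parent gap of -1.84 ± 0.29 was 89.9% of the interaction of -2.05 ± 0.37 (adjusted p = 0.017), which did not pass in 4 of the 10 fits that left out 1 library (replicate 2 of cph1-delta, of set2-delta and of wt, and replicate 1 of wt2). The spermidine family transporter gene SPCC569.05c (chromosome III, 2423807 to 2427995) was at 374 and 376 CPM in wt, 261 and 261 CPM in cph1-delta, 214 and 207 CPM in cph2-delta, 81.7 and 126 CPM in wt2 and 152 and 238 CPM in set2-delta. Neither its Clr6 complex II effect (-0.68 ± 0.21) nor its Set2 effect (0.92 ± 0.25) passed, its parent gap was -1.86 ± 0.25 and its deletion gap 0.26, with an interval from -0.21 to 0.73. The interaction of -1.59 ± 0.32 (adjusted p = 0.034) passed in 2 of the 10 fits that left out 1 library. Both abp2 and SPCC569.05c share exon positions with neighbouring genes.

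**Figure D4:**
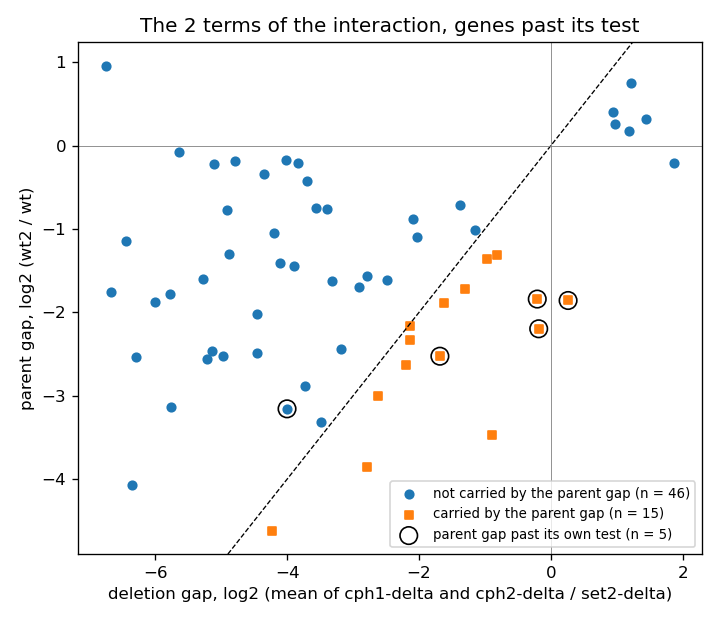
The deletion gap (horizontal axis, log2 of the mean of cph1-delta and cph2-delta over set2-delta) and the parent gap (vertical axis, log2 of wt2 over wt) of 61 genes past the interaction test, without the deleted genes and 3 genes with 0 counts in wt2. Orange squares, the 15 of these genes carried by the parent gap, lie right of and below the dashed line of equal gaps; rings mark the 5 genes whose parent gap passed its own test, of which pho841, abp2 and SPCC569.05c sit near 0 on the horizontal axis.

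At the other extreme were genes whose parents overlapped. In SPBPB2B2.06c, a phosphoprotein phosphatase gene (chromosome II, 4469018 to 4471207), the level was 1.78 and 1.27 CPM in wt, 2.33 and 2.08 CPM in cph1-delta, 2.58 and 1.86 CPM in cph2-delta, 0.505 and 2.51 CPM in wt2 and 78.4 and 142 CPM in set2-delta. The 8 libraries outside set2-delta overlapped. The parent gap was -0.08 ± 0.62, the Clr6 complex II effect 0.53 ± 0.51 and the interaction -5.72 ± 0.76 (adjusted p = 0.0028). Of the 10 genes past the test of the parent gap over the whole genome, 5 were not past the interaction test, among them ura4, SPNCRNA.129 and tam14 beside it, and the flocculin gene pfl3 (parent gap -1.55) and the copper amine oxidase gene cao1 (-1.09), which are named here after their values were seen.

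For the lower genes the DNA before the annotated transcript start was read from the RefSeq genome ASM294v3, matched by locus tag, to show what lies just upstream of genes that moved together. Of the 58, 18 had an annotated 5′ leader that fixes the start. The 200 bases before it held the letters TATAAA on either strand in 8 of the 18 (44.4%), and 37% of 4512 such windows of all genes held them. Below, 2 windows with a match and 2 without are printed, 5′ to 3′ on the gene's strand, with the match in capitals; TTTATA is the match on the other strand. The genes are SPAC977.15, of a dienelactone hydrolase family (chrI:62751-62950, + strand), abc3, of the drug resistance transporters (chrII:122442-122641, + strand), aes1, annotated as phenazine biosynthesis family (chrII:69932-70131, + strand) and abp2 (chrII:4130665-4130864, + strand).
SPAC977.15: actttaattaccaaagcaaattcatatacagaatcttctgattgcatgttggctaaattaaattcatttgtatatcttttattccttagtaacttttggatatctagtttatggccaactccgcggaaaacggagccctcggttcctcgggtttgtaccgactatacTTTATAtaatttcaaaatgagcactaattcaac
abc3: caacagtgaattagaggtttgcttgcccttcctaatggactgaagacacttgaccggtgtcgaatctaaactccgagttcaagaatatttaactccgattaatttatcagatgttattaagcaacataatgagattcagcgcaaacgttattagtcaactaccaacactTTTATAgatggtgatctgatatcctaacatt
aes1: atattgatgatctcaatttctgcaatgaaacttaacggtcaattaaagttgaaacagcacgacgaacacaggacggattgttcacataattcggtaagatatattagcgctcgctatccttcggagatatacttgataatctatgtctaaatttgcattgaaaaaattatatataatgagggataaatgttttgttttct
abp2: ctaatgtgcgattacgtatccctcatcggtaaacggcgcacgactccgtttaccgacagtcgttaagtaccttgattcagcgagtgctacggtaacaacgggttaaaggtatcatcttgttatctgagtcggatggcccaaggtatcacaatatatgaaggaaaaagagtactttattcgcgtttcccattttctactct

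Of these 4 genes, the 2 with a match, SPAC977.15 and abc3, had interactions between those of the 2 without, abp2 (-2.05) and aes1 (-4.30). Transcripts of SPAC977.15 were at 17.7 and 13.9 CPM in wt, 6.15 and 17.0 CPM in cph1-delta, 7.74 and 5.08 CPM in cph2-delta, 9.34 and 5.44 CPM in wt2 and 32.3 and 38.0 CPM in set2-delta (interaction -3.12 ± 0.59, adjusted p = 0.023, not passed in 5 of the 10 fits that left out 1 library). Those of abc3 were at 53.6 and 32.0 CPM in wt, 31.1 and 30.5 CPM in cph1-delta, 31.1 and 48.5 CPM in cph2-delta, 15.8 and 17.5 CPM in wt2 and 59.2 and 77.8 CPM in set2-delta (-2.33 ± 0.37, adjusted p = 0.0082, not passed without replicate 2 of set2-delta). In both, and also in aes1, wt2 lay below wt and set2-delta above all others. Both abc3 and aes1 were carried by the parent gap, which was 58.5% of the interaction in abc3. Transcripts of aes1 were at 28.7 and 21.5 CPM in wt, 29.4 and 36.9 CPM in cph1-delta, 20.4 and 108 CPM in cph2-delta, 7.069 and 3.97 CPM in wt2 and 201 and 206 CPM in set2-delta. The second cph2-delta library stood above the other libraries outside set2-delta, and the parent gap of -2.17 was 50.4% of the interaction of -4.30 ± 0.75 (adjusted p = 0.015), which did not pass without replicate 1 of wt, replicate 2 of wt2 or replicate 2 of set2-delta.

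In 6 genes the interaction was higher, and they were of 2 kinds. In 3 of them, the deletion of set2 lowered the transcript. The gene csc2, of a subunit of the FAR complex that acts in pheromone signalling and mitosis (chromosome II, 1326004 to 1328707), was at 34.7 and 36.3 CPM in wt, 66.1 and 65.6 CPM in cph1-delta, 60.4 and 77.6 CPM in cph2-delta, 59.2 and 60 CPM in wt2 and 32.5 and 25.3 CPM in set2-delta. All 4 cph libraries were above wt, and set2-delta was below wt2. Both effects passed, as a rise of 0.92 ± 0.17 and a decrease (-1.05 ± 0.19), and the interaction was 1.97 ± 0.26 (adjusted p = 0.0028) and passed in all 10 fits that left out 1 library. Both wt2 libraries were above both wt libraries (parent gap 0.75 ± 0.19, adjusted p = 0.21). The gene of the glucan endo-1,3-alpha-glucosidase Agn2, an enzyme that digests cell wall glucan, was at 74.1 and 91.0 CPM in wt, 98.0 and 74.2 CPM in cph1-delta, 97.5 and 79.1 CPM in cph2-delta, 91.7 and 115 CPM in wt2 and 40.5 and 23.8 CPM in set2-delta. Only set2-delta stood apart, and the interaction was 1.77 ± 0.35 (adjusted p = 0.027). The ERCC8 family gene ckn1 fell in set2-delta as well (-0.84 ± 0.21), with an interaction of 1.35 ± 0.28 (adjusted p = 0.04).

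In the other 3 genes the rise was in the cph deletions. The gene ecl1, whose product extends chronological lifespan (chromosome III, 2354974 to 2358570), was at 41.0 and 36.8 CPM in wt, 111 and 173 CPM in cph1-delta, 96.6 and 66.5 CPM in cph2-delta, 33.7 and 33.4 CPM in wt2 and 28.2 and 31.0 CPM in set2-delta. All 4 cph libraries lay above the other 6. The Clr6 complex II effect was 1.47 ± 0.22, the Set2 effect -0.18 ± 0.24 and the interaction 1.65 ± 0.32 (adjusted p = 0.025), though the gene shares exon positions with nnk1. The gene of the type V myosin Myo52, a motor that carries cargo along actin (chromosome III, 2224882 to 2229932), was at 48.2 and 58.9 CPM in wt, 115 and 121 CPM in cph1-delta, 121 and 131 CPM in cph2-delta, 60.8 and 67.3 CPM in wt2 and 59.0 and 64.8 CPM in set2-delta. Again all 4 cph libraries stood alone, with an interaction of 1.24 ± 0.22 (adjusted p = 0.017). In sip1, of an accessory protein of the AP-1 coat, it was 1.35 ± 0.24 (adjusted p = 0.017). Of the 6 genes, csc2 alone passed in every fit that left out 1 library, and their number was 13 without replicate 1 of set2-delta, 1 without its replicate 2, 3 without replicate 1 of wt, 2 without replicate 2 of wt2 and 4 without replicate 2 of wt or replicate 1 of wt2.

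Away from the chromosome ends few genes passed the interaction test. Of the 4929 genes tested outside 100 kb of the ends of chromosomes I and II, 0.446% passed, the 3 deleted genes included. These also include the 8 lower genes from 100 to 150 kb and the 3 on AB325691. With 2 libraries per strain, a gene not past the test may still differ between the 2 kinds of deletion. Genes that rose in both kinds of deletion were 94. They were 26% of the 362 that rose in the cph deletions, while 4.32% of all genes tested rose in set2-delta. They were 42.9% of the 219 that rose in set2-delta, while 7.14% of all genes tested rose in the cph deletions. In both, 5 fell, beside 1.97% of all genes in the cph deletions and 0.572% in set2-delta. The parents of the 2 effects are different strains, so these effects share no library, and their overlap was not tested. The Clr6 complex II effect called 64 genes in place of 462 without replicate 2 of wt, 255 without replicate 2 of cph1-delta and 266 without replicate 2 of cph2-delta. The Set2 effect called 54 genes in place of 248 without replicate 2 of wt2, 72 without its replicate 1, 106 without replicate 1 of set2-delta and 130 without its replicate 2. Of the lists examined, 21 had 0 members past the interaction test.

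Genes of heterochromatin and RNA interference, which silence repeats, had rises in both kinds of deletion. Of 20 tested, 12 rose in the cph deletions (60%, beside 7.14% of all genes, median 0.74) and 4 in set2-delta (20%, beside 4.32%, median 0.44), and 0 passed the interaction test, with a median of 0.44. The remodeller gene mit1 was at 22.4 and 23.0 CPM in wt, 59.8 and 85.4 CPM in cph1-delta, 67.3 and 79.5 CPM in cph2-delta, 27.9 and 26.8 CPM in wt2 and 65.3 and 44.8 CPM in set2-delta. All 3 deletions lay above both parents, and the interaction of 0.68 ± 0.31 (adjusted p = 0.49) leaves a 95% interval from 0.0018 to 1.356. Of 18 genes of DNA recombination and repair, 7 rose in the cph deletions (38.9%) and 4 in set2-delta (22.2%), with medians of 0.61 and 0.61 and a median interaction of -0.15. Of 18 meiotic genes, 6 rose in the cph deletions (33.3%) and 2 in set2-delta (11.1%), with a median interaction of 0.36. The 13 Tf2 retrotransposons had medians of 1.60 in the cph deletions, where 5 rose (38.5%), and 1.33 in set2-delta, where 1 rose (7.69%), with a median interaction of 0.26; their copies are near-identical, so single values are uncertain.

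Of 374 coding genes of at least 4 kb that were tested, 96 rose in the cph deletions (25.7%, beside 7.14% of all genes) and 39 in set2-delta (10.4%, beside 4.32%). In the interaction 2 were higher, sip1 and myo52, and 2 lower, abc3 and SPCC569.05c, or 1.07% beside 1.32% of all genes. Of 320 antisense non-coding RNAs, 9 rose in the cph deletions (2.81%) and 6 in set2-delta (1.88%), both below the shares of all genes, and SPNCRNA.1301 was the only one past the interaction test. Of 183 non-coding RNAs that overlap no gene, 3 rose in the cph deletions (1.64%) and 11 in set2-delta (6.01%), and 4 were lower in the interaction (2.19%). The 116 ribosomal protein genes had 0 past any of the 3 tests and a median interaction of -0.15. The median standard error of the interaction was 0.32 over all genes tested, and the smallest interaction past the test was the 1.24 of myo52.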

How the data were processed

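Poly(A)-selected RNA of 10 libraries was compared, grouped by the labels. Per the submitters' processing notes, the genome build was ASM294v2 and the tools STAR 2.7.10a, SAMtools 1.16.1, Picard, featureCounts (Subread 2.0.1), edgeR 3.38.4 and DESeq2 1.36.0. The deposited counts are unnormalized sums of reads over the exons of a gene, with no option for strand or multi-mapping reads per the file headers, so overlapping genes and near-identical copies are uncertain. Gene names came from a RefSeq table.

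Counts were analysed with edgeR 4.0.16 (limma 3.58.1, R 4.3.3). Genes with at least 0.938 CPM in 2 libraries and 15 counts in all (filterByExpr) were kept, 5067 of 7268, and the 2201 left out held 0.0105% of the counts. TMM factors ran from 0.846 to 1.25. The 5 strains were fitted together without a block (5 residual degrees of freedom, common biological coefficient of variation 0.211), and quasi-likelihood tests were adjusted by Benjamini-Hochberg over all genes. Standard errors came from the F statistic. The code was tested on simulated data. Distances are to the ends of the assembled chromosomes. Lists and genes were chosen with earlier results of these data known. Genes named were the deleted genes and markers, the 12 largest per direction at 5 CPM or more with both deletions of like sign and size, the 8 largest per direction carried or not carried by the parent gap, genes past both single tests in opposite directions, and up to 4 members per list; SPAC977.15, nrg1, SPBPB2B2.06c, pdc102, eno102, dak2, grt1 and SPBC1348.12 were chosen after their values were seen. Alternatives were DESeq2 1.42.0, RLE scaling, limma-voom, no filter, robust dispersion, a replicate block and leaving out each library.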

Additional observations from a re-analysis of the deposited data

Results flagged for a closer look

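The 11 genes below have effects that differ between the 2 kinds of deletion by the test of the difference itself, with each effect past its own test and the opposite sign (edgeR's quasi-likelihood test, adjusted over all genes). On the log2 scale the interaction was -8.84 in SPBC460.05, -8.83 in SPAC750.06c, -8.43 in SPAC186.02c, -7.88 in SPAC186.03, -7.77 in ftm4, -7.16 in SPBPB10D8.01, -6.18 in SPAPJ695.02, -5.62 in gdt1, -3.50 in mug14 and -2.38 in pho841, all lower in the cph deletions and higher in set2-delta. In csc2 it was 1.97, with the opposite directions. Of these, gdt1 alone failed the test in some fits that left out 1 library. The parent gap carried SPBC460.05, mug14 and pho841, at 52.2%, 53.9% and 92.3% of the interaction. In pho841 the deletion gap was -0.18 and did not pass its own test. The non-coding RNA prl37 also had opposite effects, with at most 3 counts in wt2.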

How the results depend on the processing

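With 2 libraries per strain, counts of genes past the test depend on single libraries. Leaving out 1 library each, the interaction called 29 to 85 genes (67 with all), with 26 to 77 lower and 1 to 13 higher without the deleted genes, 18 to 58 lower near the ends of chromosomes I and II, and 7 to 23 carried by the parent gap. In the same fits the Clr6 complex II effect called 64 to 564 genes, the Set2 effect 54 to 266, the parent gap 6 to 18, the deletion gap 69 to 212, and the interaction of cph1-delta alone 20 to 66 and of cph2-delta alone 20 to 102. A fit with 1 library in a strain assumes that it varies like the others.

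DESeq2 called more genes: 111 in the interaction (88 lower and 20 higher without the deleted genes), 713 for the Clr6 complex II effect, 63 for the parent gap, 264 for the deletion gap, 86 and 113 for cph1-delta and cph2-delta alone, and 33 carried by the parent gap. Without the filter on low counts, 32 genes passed for the parent gap, 69 for cph1-delta alone and 10 were higher in the interaction. Taking in place of the 18 carried genes those whose parent gap passed its own test gave 5, and 4 of the 5 are among the 18. RLE scaling, limma-voom and robust dispersion kept all these counts within 1.5 times.

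The main fit did not pair samples by replicate number. The log2 difference between the 2 libraries of a strain correlated between -0.413 and 0.264 over pairs of strains. These correlations alone do not settle whether the numbers mark a pairing. With the replicate block the interaction called 69 genes. Among genes not past the test, leaving out 1 library reversed the interaction of Tf2-4 (-2.43 to 0.17), amt3 (-2.05 to 6.58), sir2 (-0.073 to 0.26) and leu1 (-0.34 to 0.11, with 0.039 without replicate 2 of cph1-delta); the cause was not tested.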
